A study of Mus musculus with 797 samples.

Results

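Glutamatergic nuclei marked by the AAV vector AiE0447h were compared with glutamatergic nuclei marked by 10 other vectors in the same library set. The nuclei were chosen by their counts: at least 50000 gene reads, at least 1000 genes with a read, at least 10 CPM (counts per 1e6 gene reads) of Slc17a7, and under 10 CPM of Gad1 and Gad2 together. AiE0447h gave 27 such nuclei and the other vectors 194, together 221 of the 797 nuclei of the series. Slc17a7 encodes a vesicular glutamate transporter, while Gad1 and Gad2 encode the enzymes that make GABA, so these 3 genes define the nuclei and are no result.

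All nuclei came from C57Bl/6J mice given, in young adulthood, 1 AAV in the capsid PHP.eB at 5e11 vector genomes per mouse, and were sorted 3 to 4 weeks later for the reporter H2B-SYFP2, in which a histone carries a yellow fluorescent protein into the nucleus. The AiE0447h mice differed from the rest by the enhancer that drives this reporter. The other vectors were hSyn1, a human synapsin promoter used for neurons, and the enhancers AiE0078h, AiE0140h, AiE0387m, AiE0391h, AiE0401h, AiE0410m, AiE0445h_3xC2, AiE0743m_3xC2 and AiE0779m, with 10 to 31 nuclei each. The labels name no animal, so each vector is 1 sample, vector and animal cannot be told apart, and no test between vectors was made; a rank test of 1 vector against 10 could not go below an exact one-sided p of 0.0909.

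Excitatory neurons of the cerebral cortex release glutamate and fall into types by layer and by where their axons go. Cux2 marks upper-layer neurons that project within the telencephalon, Rorb marks neurons of the middle layers, Fezf2 is a transcription factor of deep-layer neurons that project below the cortex, and Foxp2 and Tle4 mark corticothalamic neurons. Neurons of all these types share Slc17a7, pallial transcription factors and a common postsynaptic machinery. A nucleus sorted by an enhancer-driven reporter can come from any cell in which that enhancer is active.

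Of 32 AiE0447h nuclei in the library set, 2 fell under the read or gene minimum, 2 had too little Slc17a7 and 2 had too much Gad1 plus Gad2, 1 of which failed on both genes. The lowest Slc17a7 level among the 27 was 62.4 CPM, the median 1050 CPM and the highest 2005 CPM. The medians of the other vectors ran from 558 to 1128 CPM. In the whole library set, the nearest nucleus below the Slc17a7 limit had 8.33 CPM, and for Gad1 plus Gad2 the nearest nuclei had 9.17 CPM inside and 43.7 CPM outside. A further 8 AiE0447h nuclei from another library set had no Slc17a7 read and 8.60 to 5525 CPM of Gad1 plus Gad2, with a median of 1703 CPM, and took no part.

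All nuclei are labelled striatum, whose principal neurons are GABAergic spiny projection neurons. Drd1, Drd2 and Adora2a, the receptors that define those neurons, had no read in the 27 AiE0447h nuclei, which for each gene, at 3 counts of 27 as the limit that a count of 0 allows, is a share of up to 11.1% of nuclei. The label of glutamatergic nuclei was checked against pallial genes that the selection had not used. Arpp21 had a read in 27 of 27 AiE0447h nuclei, Nrgn in 26, Mef2c in 24, Neurod2 in 11, Neurod6 in 10 and Tbr1 in 8. Of 12 GABAergic genes other than Gad1 and Gad2, which the selection had held low, 10 had no read. The summed level of the 12 genes was 0 CPM in 25 of 27 nuclei, with a highest value of 2196 CPM. Of 8 astrocyte markers 4 had no read, of 9 oligodendrocyte markers 6, and of 10 microglial and vascular markers 8; Aqp4, Mog, P2ry12 and Cldn5 were all at 0.

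The median number of genes with a read was lower in AiE0447h nuclei than in the nuclei of any other vector. After every nucleus was thinned to 50000 reads, the AiE0447h median was 2117 genes, with a range of 1267 to 3248 and an SD of 415 over nuclei. The medians of the other vectors ran from 2214 to 2588 genes. Depth did not set AiE0447h apart, with a median of 272346 reads against medians of 226512 to 345616 in the other vectors. Under 1900 genes lay 8 of 27 AiE0447h nuclei (29.6%), against 4 of 14 nuclei of AiE0743m_3xC2 (28.6%), 2 of 10 of hSyn1 (20%), 10% or fewer in AiE0779m and AiE0445h_3xC2, and none in the other 6 vectors. In this share AiE0447h did not stand apart. The nuclear RNA Malat1 took a median of 18.9% of reads in AiE0447h nuclei, against 15.4% to 21.1% in the other vectors.

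**Figure D1:**
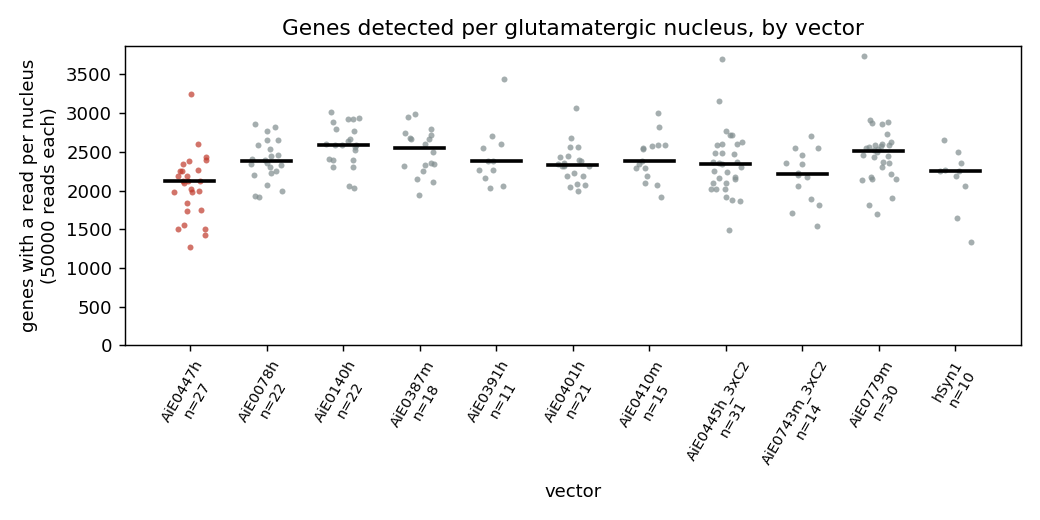
Genes with a read per nucleus after thinning to 50000 reads (vertical axis) for each vector (horizontal axis); points are nuclei, bars are medians, AiE0447h is red. The AiE0447h median of 2117 genes lies below the medians of the other vectors, the lowest of which is 2214, and several AiE0447h nuclei lie under 1900 genes.

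The level of a gene in a vector was the mean over nuclei of log2(CPM + 1). A difference was the AiE0447h level minus the mean of the 10 other levels. Such a difference is not a fold change of summed reads, and can overstate or understate it. For Syt7 a difference of 1.02 went with a summed level 0.997 times the mean of the other vectors. For Riok3 a difference of -3.30 went with 0.016 times that mean. Among 4795 genes compared, those with a read in at least 20% of nuclei on average, 81 (1.69%) were higher by at least 1 and above every other vector, and 514 (10.7%) were lower by at least 1 and below every other vector. The whole distribution lay low, with a median difference of -0.35 log2 units and 68.2% of genes below 0. With each vector centred on its own median, 194 genes (4.05%) were higher and 229 (4.78%) lower. All 81 uncentred higher genes and 229 of the 514 lower genes kept their place after centring. On summed reads per vector, which weight a read equally wherever it falls, the median difference was 0.08, with 236 genes higher and 264 lower. Genes and levels below are named with both scalings wherever the placement changed. The fewer genes per nucleus moved with this shift and their part in it was not tested; with the nuclei under 1900 genes left out, the median difference was -0.21 and 249 genes were higher and 543 lower, over 19 AiE0447h nuclei and 9 other vectors.

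The spread between AiE0447h nuclei was wide. The difference exceeded the SD over nuclei in 2 of the 81 higher genes and 33 of the 514 lower ones, and it exceeded 2 SD of the other vectors' levels in 38 of the higher and 235 of the lower genes. Single nuclei often had no read of a gene, so a level reflects both how many nuclei had a read and how many reads these had.

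**Figure D2:**
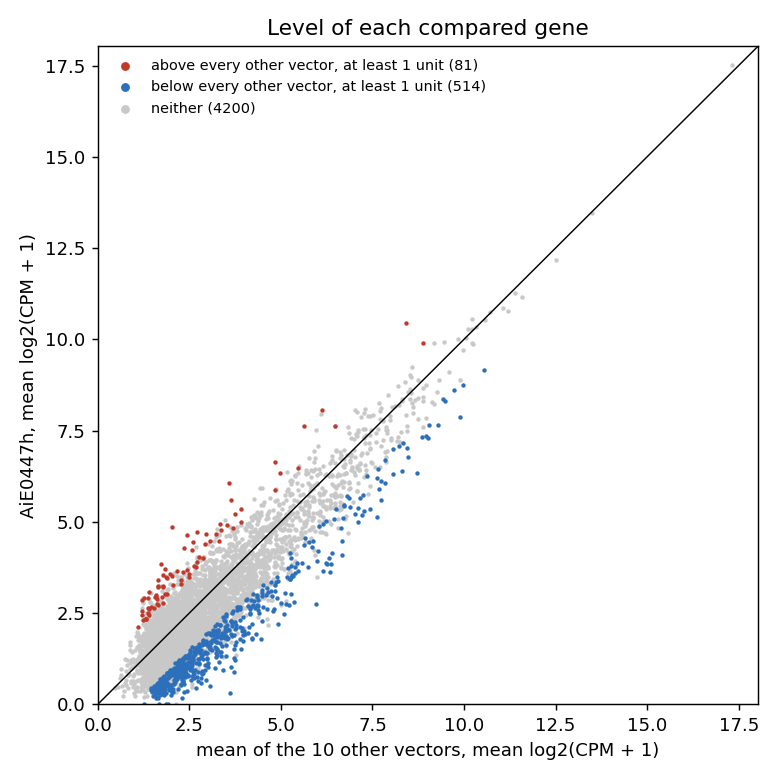
Level of each of the 4795 compared genes in AiE0447h nuclei (vertical axis) against the mean of the 10 other vectors (horizontal axis), both as mean log2(CPM + 1); the line marks equal levels. Red marks 81 genes above every other vector and blue 514 genes below every other vector, and more genes lie under the line than over it.

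To show the promoter sequences of leading genes in both directions, the 200 bases that end 51 bases before the RefSeq start (build GRCm38.p6) are given for the first higher and the first lower gene whose window held no annotated exon. Capitals mark TGACG, the core of the cAMP response element, or GGGCGG, the GC box, on either strand. The Eif4a2 window lies at chr16:23107218-23107417 on the plus strand and the Tmed4 window at chr11:6274888-6275087 on the minus strand.
Eif4a2: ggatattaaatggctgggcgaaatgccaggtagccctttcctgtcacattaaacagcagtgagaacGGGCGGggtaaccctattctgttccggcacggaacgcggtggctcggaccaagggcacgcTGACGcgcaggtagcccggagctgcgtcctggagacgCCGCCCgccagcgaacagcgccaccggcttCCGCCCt
Tmed4: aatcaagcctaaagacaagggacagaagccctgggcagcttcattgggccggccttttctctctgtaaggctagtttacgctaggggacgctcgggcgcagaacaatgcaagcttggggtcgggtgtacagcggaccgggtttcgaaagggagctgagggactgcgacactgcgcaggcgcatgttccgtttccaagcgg
The Eif4a2 window held 1 TGACG and 3 GGGCGG matches and the Tmed4 window neither. Among the same windows of 27025 genes, 12.6% held TGACG and 24.5% held GGGCGG. The windows had a GC content of 63.5% for Eif4a2 and 58.5% for Tmed4.

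The gene with the largest positive difference was Tiparp, which encodes a mono-ADP-ribosyltransferase induced by the aryl hydrocarbon receptor (chr3:65528410-65555518 on mm10). Its level was 4.87 ± 4.62 in AiE0447h nuclei (SD, n = 27), against a lowest, median and highest of 0.68, 1.70 and 3.33 in the other vectors. A read was found in 15 of 27 AiE0447h nuclei (55.6%), against an average of 23.9% of nuclei in the other vectors. Summed over nuclei its level was 379 CPM in AiE0447h, against 52.9 to 279 CPM in the other vectors. Among AiE0447h nuclei a Tiparp read was found in 14 of the 19 with at least 1900 genes and in 1 of the 8 with fewer.

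The other leading higher genes are given by what their products do. The septin gene Sept4 had a level of 6.05 ± 4.24 in AiE0447h nuclei, against 0.89 to 5.01 in the other vectors, a difference of 2.47. Mtcl1, whose product crosslinks microtubules, had a level of 4.63 ± 3.80 in AiE0447h nuclei, against 0.74 to 3.47. Nipbl, the loader of cohesin onto chromosomes, had a level of 4.71 ± 3.88 in AiE0447h nuclei, against 0 to 3.82, where the 0 was hSyn1. These AiE0447h levels lie above the range of the other vectors, which spans over 2 units for each gene.

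Eif4a2, an RNA helicase of translation initiation, had a read in 24 of 27 AiE0447h nuclei (88.9%), against 60% to 77.3% in the other vectors, and a level of 7.63 ± 3.41 against 3.21 to 6.74. Cdk5, a kinase of postmitotic neurons, had a level of 5.60 ± 3.82 in AiE0447h nuclei, against 1.46 to 4.77. Atp6v1d, a subunit of the vacuolar proton pump, had a level of 8.06 ± 3.58 in AiE0447h nuclei, against 4.32 to 7.84. Mast3, a microtubule-associated serine/threonine kinase, had a read in 25 of 27 AiE0447h nuclei, and its level of 6.64 ± 2.54 lay close to the highest other vector, AiE0743m_3xC2, at 6.53. The remaining 4 of the 12 leading genes, Ccdc191, Dpy19l1, Mgrn1 and Plekha1, had differences of 2.11, 1.95, 1.87 and 1.84. On summed reads Eif4a2, Cdk5, Dpy19l1, Atp6v1d and Mast3 were no longer both at least 1 unit higher and above every other vector; the summed level of Dpy19l1 was 251 CPM in AiE0447h nuclei, against 40.1 to 339 CPM. With the nuclei under 1900 genes left out, Mgrn1, Plekha1 and Mast3 lost their place, Mgrn1 at 3.18 in AiE0447h nuclei against a highest other vector of 3.25 and Plekha1 at 3.58 against 3.71. Tiparp, Sept4, Ccdc191 and Nipbl kept theirs under all 13 alternative settings. Of these 12 genes 6 overlap another annotated gene, such as Qtrt2 for Ccdc191, Rfc4 for Eif4a2 and Fgfr2 for Plekha1; with no stated strand setting, reads of such pairs cannot be told apart.

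**Figure D3:**
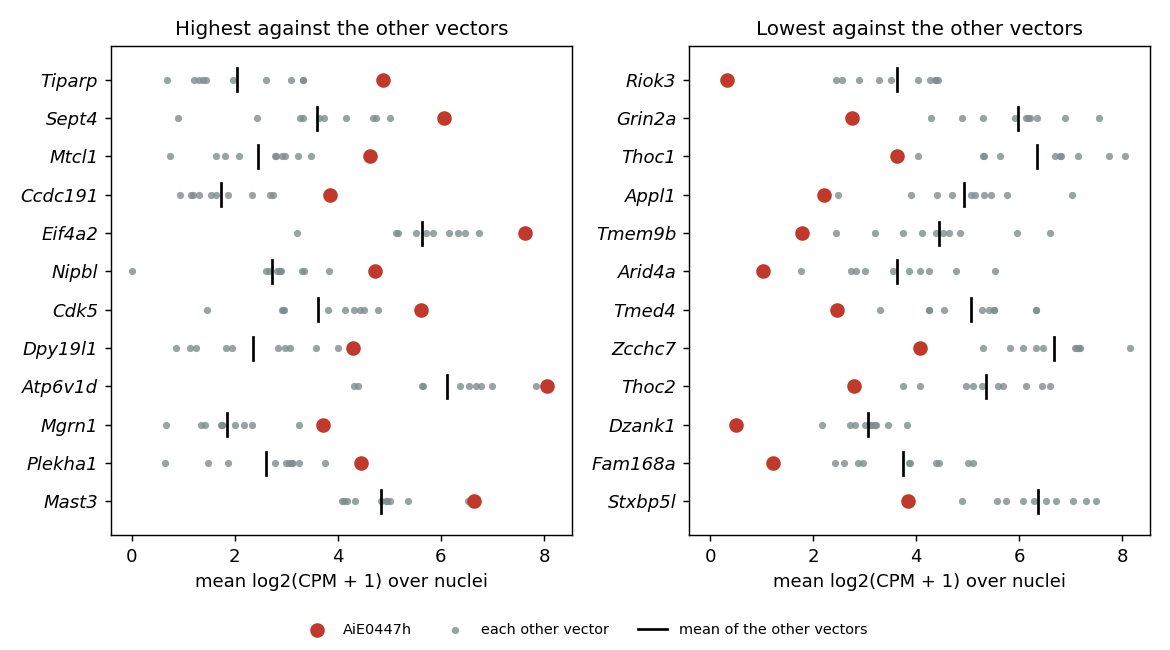
Mean log2(CPM + 1) over nuclei (horizontal axes) of the 12 genes with the largest positive and the 12 with the most negative difference; red is AiE0447h, grey points are the 10 other vectors and black bars their mean. By the choice of genes, every red point lies outside the grey ones, closest for Mast3 at 6.64 against 6.53.

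Lowest of all compared genes was Riok3, an atypical kinase that acts in ribosome maturation (chr18:12128741-12157387). It had a read in 2 of 27 AiE0447h nuclei (7.41%), against 32.3% to 63.6% of nuclei in the other vectors. Its level was 0.32 ± 1.28 in AiE0447h nuclei, against a lowest, median and highest of 2.44, 3.77 and 4.43. Its summed level was 3.06 CPM in AiE0447h nuclei (exact Poisson 95% interval 1.92 to 4.64, counting error only), against 103 to 271 CPM. A similar pattern was seen for Dzank1, with a read in 2 AiE0447h nuclei and a level of 0.50 ± 1.89 against 2.18 to 3.82 in the other vectors.

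Grin2a was the second lowest gene. It encodes a subunit that joins NMDA-type glutamate receptors as cortical neurons mature (chr16:9567898-9995560). A Grin2a read was found in 9 of 27 AiE0447h nuclei (33.3%), against 50% to 90.9% in the other vectors. The level was 2.75 ± 4.01 in AiE0447h nuclei, against a lowest, median and highest of 4.29, 6.14 and 7.55, a difference of -3.22. The summed level was 130 CPM in AiE0447h nuclei, against 208 to 419 CPM. The partner subunits, looked up after the Grin2a value was seen, did not share this: Grin1 had a difference of 0.02 and Grin2b, read in 27 of 27 AiE0447h nuclei, a difference of -0.01.

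Among the rest of the 12 lowest genes, Thoc1 and Thoc2, subunits of the THO complex that couples transcription to mRNA export, had differences of -2.73 and -2.57. The Thoc1 level was 3.62 ± 4.26 in AiE0447h nuclei, against 4.03 to 8.06 in the other vectors, and the Thoc2 level was 2.79 ± 3.68 against 3.75 to 6.59. Appl1, an adaptor of early endosomes, had a level of 2.20 ± 3.62 in AiE0447h nuclei, against 2.48 to 7.01, and was no longer below every vector after centring. Tmed4, a cargo receptor of the early secretory pathway, had a level of 2.46 ± 4.05 in AiE0447h nuclei, against 3.30 to 6.32. Stxbp5l, a tomosyn that binds the vesicle fusion machinery, had a read in 15 of 27 AiE0447h nuclei, and its difference was -2.53. The other 4 of the 12 were Tmem9b, Arid4a, Zcchc7 and Fam168a, with differences of -2.66, -2.61, -2.59 and -2.53. After centring 11 of the 12 remained below every other vector. On summed reads Tmem9b and Zcchc7 lost their place, and with the nuclei under 1900 genes left out Thoc1 and Appl1 did.

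The low genes were missing across the AiE0447h nuclei rather than in a few of them. Of the 12 lowest genes, an AiE0447h nucleus had a read of 1 to 9, with a median of 3, while the medians of the other vectors ran from 7 to 9. The median was 3 both in the 8 AiE0447h nuclei under 1900 genes and in the 19 at or above it. Of the 12 leading higher genes, an AiE0447h nucleus had a read of 3 to 12, with a median of 8, against medians of 4 to 6 in the other vectors. These counts restate the choice of the genes and show only how the reads were spread over nuclei.

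Each layer gene was read in a minority of the AiE0447h nuclei, and most nuclei had a read of at least 1 of them. At least 1 of Cux2, Rorb, Fezf2, Foxp2, Tle4 and Tshz2 had a read in 16 of 27 AiE0447h nuclei (59.3%, exact Clopper-Pearson 95% interval 38.8 to 77.6), against 60% to 85.7% in the other vectors. The largest share was for Rorb, with a read in 8 of 27 AiE0447h nuclei (29.6%, 13.8 to 50.2), against 9.09% to 31.8%. The Rorb level was 2.42 ± 3.90 in AiE0447h nuclei, and the highest other vector, AiE0078h, also stood at 2.42. On this mean log scale Rorb therefore lay above every other vector only after centring. Its summed level lay above every other vector, at 147 CPM in AiE0447h nuclei, against 1.27 to 124 CPM. Rorb without a read of Cux2, Foxp2 or Tle4 was found in 6 AiE0447h nuclei (22.2%), against 0% to 22.2% in the other vectors.

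Tle4, a corepressor of corticothalamic neurons, was the layer gene that lay below every other vector. It had a read in 2 of 27 AiE0447h nuclei (7.41%, 0.91 to 24.3), against 10% to 36.4%. Its level was 0.56 ± 2.04 in AiE0447h nuclei, against a lowest, median and highest of 0.94, 2.09 and 2.78, a difference of -1.48, and -1.16 after centring. Foxp2, which marks the same neurons, showed no such gap, with a read in 3 AiE0447h nuclei (11.1%, 2.35 to 29.2) against 0% to 22.2%. No AiE0447h nucleus had a read of Cux2 or Rorb together with Foxp2 or Tle4, which at 3 counts of 27 allows a share of up to 11.1%, against 0% to 13.6% in the other vectors.

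Cux2 had a read in 4 AiE0447h nuclei (14.8%, 4.19 to 33.7), against 5.56% to 40.9% in the other vectors. Fezf2 had a read in 1 AiE0447h nucleus (3.70%, 0.094 to 18.97), against 0% to 27.3%. Tshz2, a marker of near-projecting neurons, had a read in 2 AiE0447h nuclei (7.41%, 0.91 to 24.3), against 0% to 22.7%. For these 3 genes the AiE0447h share lay inside the range of the other vectors. These intervals cover counting error over the nuclei of 1 sample, and layer makeup was not tested between vectors. On summed reads the differences of Cux2, Foxp2 and Tshz2 were 0.14, 1.30 and 1.86, while on the mean log scale they were -0.80, -0.19 and -0.06, so these genes have no direction that holds on both.

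**Figure D4:**
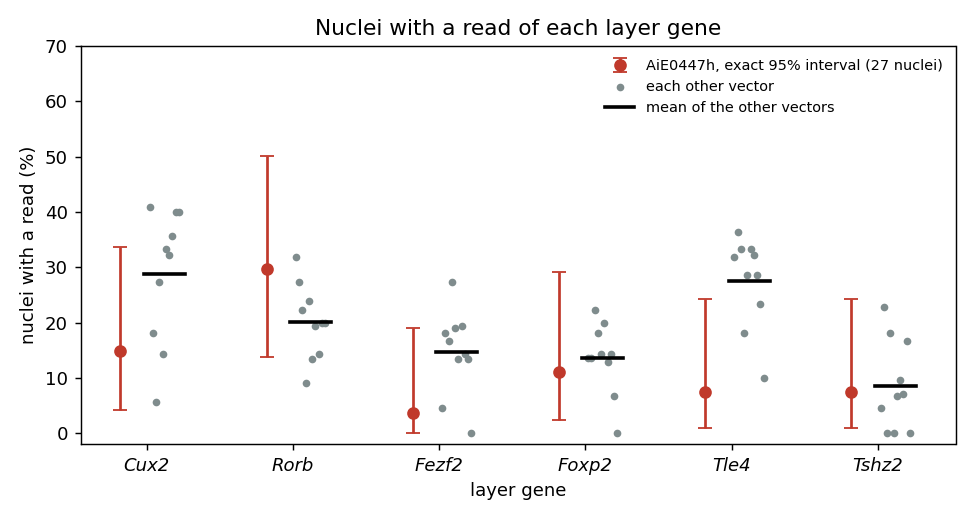
Share of nuclei with a read (vertical axis, %) for the 6 layer genes (horizontal axis); red points are AiE0447h with exact 95% intervals over 27 nuclei, grey points the 10 other vectors and black bars their mean. Rorb stands at 29.6% in AiE0447h nuclei, and Tle4 at 7.41% lies below every grey point.

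Of the 14 upper-layer genes measured, 7 were compared; 6 of the 7 lay below 0, and the median difference was -0.80, against -0.35 over all compared genes. Calb1, which encodes the calcium buffer calbindin, was the 1 member of the 7 (14.3%) below every other vector, against 10.7% of all genes. It had a read in 7 of 27 AiE0447h nuclei and a level of 2.27 ± 3.97 against 3.12 to 5.10. Its summed level, 148 CPM, lay inside the range of the other vectors, 141 to 447 CPM. Enpp2, which makes lysophosphatidic acid, had a difference of -1.50 and Cux1, a relative of Cux2, a difference of 0.65, both inside the range of the other vectors. Among layer 6 and claustrum genes, Slc30a3, the vesicular zinc transporter, had a level of 1.58 ± 3.39 in AiE0447h nuclei, against 1.99 to 4.39, a placement that was lost on centring. Of 14 genes of layer 5 extratelencephalic neurons 8 had no read in AiE0447h nuclei, and of 9 layer 6b genes 7 had none.

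Of 16 pallial glutamatergic genes 10 were compared, with a median difference of -0.31, close to that of all genes. Sv2b, a synaptic vesicle protein of excitatory neurons, was the 1 gene of the 10 (10%) below every other vector, against 10.7% of all genes. Its level was 2.74 ± 3.92 in AiE0447h nuclei against 4.32 to 7.18. Nrn1, a secreted protein induced by activity, had a level of 4.74 ± 3.89 in AiE0447h nuclei against 2.39 to 4.91. On this mean log scale it lay above every other vector only after centring. Its summed level lay above them, at 157 CPM against 34.9 to 140 CPM. The transcription factors Neurod2, Tbr1 and Neurod6 had differences of 0.48, 0.44 and -0.28.

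Glutamate receptor genes lay lower as a list than the compared genes as a whole. Of the 24 measured, 15 were compared and 13 of these were below 0, with a median difference of -0.75. Grin2a and Cnih2, an AMPA receptor auxiliary subunit, were below every other vector in both scalings; Cnih2 had a level of 1.40 ± 3.11 in AiE0447h nuclei, against 1.79 to 3.66. These 2 of 15 genes (13.3%) compare with 10.7% of all genes, and no member was above every other vector. The AMPA receptor subunit Gria2 had a read in 27 of 27 AiE0447h nuclei, and its difference was -0.20.

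In the postsynaptic density, 20 of 23 genes were compared, with a median difference of -0.49. The scaffolds Dlg1 and Dlg2 were below every other vector with and without centring. Their levels were 4.98 ± 4.21 and 5.36 ± 4.32 in AiE0447h nuclei against 5.41 to 7.95 and 6.15 to 9.17 in the other vectors. On summed reads both lay inside the range of the other vectors. Dlg1 had 307 CPM against 207 to 675 CPM, and Dlg2 350 CPM against 212 to 722 CPM. Dlgap4, a scaffold of the same family of complexes, was above every other vector, with a level of 4.22 ± 3.87 in AiE0447h nuclei against 1.17 to 3.94. The 2 lower genes are 10% of the list, against 10.7% of all genes, and the 1 higher gene is 5%, against 1.69%.

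Of 29 adhesion and guidance genes compared, 4 (13.8%) were below every other vector, against 10.7% of all genes, and none above. Nlgn1, a postsynaptic adhesion molecule, had a level of 1.77 ± 2.53 in AiE0447h nuclei, against 3.35 to 5.34, and a summed level of 36.3 CPM against 98.7 to 211 CPM. Cdh10, a cadherin, had a level of 1.70 ± 3.12 in AiE0447h nuclei, against 3.31 to 4.73. Both kept their place after centring, while Cntnap2 and Pcdh15, with differences of -1.36 and -1.22, did not. The median of the list was -0.34, against -0.35 for all genes.

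Of 19 sodium, calcium and HCN channel genes compared, 3 (15.8%) lay below every other vector, against 10.7% of all genes, and none did after centring. The sodium channel gene Scn8a had a level of 5.35 in AiE0447h nuclei, against a lowest other vector of 5.46, and Scn2b a level of 0.43 against 0.68, with differences from the mean of the other vectors of -1.17 and -1.02. Of 17 potassium channel genes 1 (5.88%), against 1.69% of all genes, lay above every other vector. This gene, Kcnq3, a subunit of the M current, had a level of 3.53 ± 4.42 in AiE0447h nuclei against 1.33 to 3.15. The most negative potassium channel difference was that of Kcnn2, -1.08, inside the range of the other vectors. Of 13 GABA receptor and scaffold genes 1 (7.69%) lay below every other vector, against 10.7% of all genes. It was Gabrb2, with a level of 1.07 ± 2.75 in AiE0447h nuclei against 1.52 to 3.32, while Gabrb1 had a difference of 0.93.

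Of 20 vesicle release genes 1 (5%) was above every other vector, against 1.69% of all genes, and 1 (5%) below, against 10.7%. The higher gene was the calcium sensor Syt7, with a level of 5.86 ± 2.88 in AiE0447h nuclei against 3.61 to 5.64. The lower gene was Sv2b. The summed level of Syt7 was 182 CPM in AiE0447h nuclei, against 81.2 to 294 CPM, so its placement rested on the share of nuclei with a read, 88.9% against 54.5% to 80%. Of 29 genes of cyclic nucleotide and calcium signalling 1 (3.45%) was above every other vector, against 1.69% of all genes, and 4 (13.8%) below, against 10.7%. The higher gene, the adenylyl cyclase Adcy1, had a level of 3.90 ± 4.37 in AiE0447h nuclei against 2.04 to 3.57. Camk2d, a calcium/calmodulin-dependent kinase, and Prkar1a, a regulatory subunit of protein kinase A, were below in both scalings, with differences of -2.08 and -1.41. Camkv, with a difference of -1.35, was below only without centring.

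Of 23 neuronal RNA-binding genes compared, 5 (21.7%) lay below every other vector, against 10.7% of all genes, and none above; after centring 1 (4.35%) did, against 4.78% of all genes. Celf1 kept that place after centring, with a level of 3.10 ± 4.10 in AiE0447h nuclei against 3.57 to 5.64. Ptbp2, Khdrbs3, Srrm3 and Fmr1, all regulators of splicing or translation, had differences of -1.45, -1.22, -1.42 and -1.47 and lost it. Of 7 nuclear noncoding RNAs 1 (14.3%) lay below every other vector, against 10.7% of all genes, a placement lost on centring. It was the imprinted Rian, with a level of 5.46 in AiE0447h nuclei against a lowest other vector of 5.72. Its difference from the mean of the other vectors was -1.27, and Miat had a difference of 0.35.

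Among lists with at least 6 genes compared, immediate early genes had the highest median, 0.12 over 10 genes, with 6 above 0. Junb, a transcription factor of the AP-1 family, had a level of 4.80 ± 4.57 in AiE0447h nuclei and a difference of 1.55, but AiE0078h stood at 6.60. Ier5 was the 1 member of the 10 (10%) below every other vector, against 10.7% of all genes. Its level was 1.51 ± 3.29 in AiE0447h nuclei against 1.91 to 4.46. In the list of cytoplasmic RNAs, 1 gene of 6 compared (16.7%) was above every other vector, against 1.69% of all genes. It was Actb, with a level of 6.47 ± 3.82 in AiE0447h nuclei against 4.18 to 6.29. Its summed level, 401 CPM, lay inside the range of the other vectors, 218 to 462 CPM. Near-identical processed copies of this gene make its count uncertain. Of 9 stress response genes, 6 p53 response genes and 8 neuromodulator receptor genes compared, none was at least 1 unit away and outside the other vectors. Of all genes 1.69% were higher and 10.7% lower, so a count of 0 in lists this short says little about their members. The most negative was the glutamate receptor gene Grm5, at -1.22. No interferon response gene was read often enough to be compared.

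**Figure D5:**
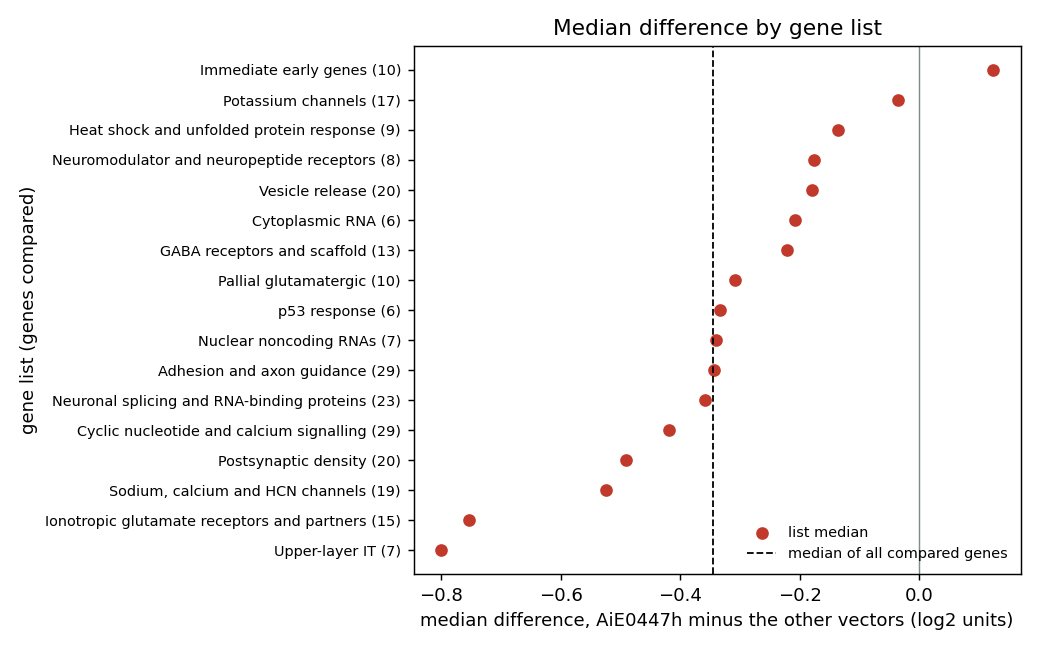
Median difference, AiE0447h minus the other vectors in log2 units (horizontal axis), for each gene list with at least 6 genes compared (vertical axis, number of genes in brackets); the dashed line is the median of all compared genes, -0.35. Upper-layer genes at -0.80 and glutamate receptor genes at -0.75 lie lowest, and immediate early genes at 0.12 highest.

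Genes of other cell types that passed the filter were few. Slc1a2, a glutamate transporter best known from astrocytes, had a difference of 0.61, and Mbp, a myelin protein gene, of 0.51, both inside the range of the other vectors. Of 3 spiny projection neuron genes compared, the transcription factor gene Foxp1 had a difference of 0.75 and the phosphodiesterase gene Pde10a of -1.55; The Foxp1 level of 6.03 in AiE0447h nuclei stood next to a highest other vector of 6.02, and its difference from the mean of the other vectors passed 1 only after centring, at 1.07. The neuropeptide gene Cck had a difference of -0.88.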

How the data were processed

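Single sorted nuclei were profiled with SMART-Seq v4 and Nextera XT, per the labels' protocols. The authors deposited raw read counts per gene and nucleus; per the submitters' processing notes, STAR 2.7.2a and mm10 were used. The sources used here do not give the counter, its annotation, its strand setting or the treatment of introns. There are no molecular identifiers, so PCR copies are counted separately and intervals cover counting error only. Of 2501 columns, 1704 were not used here; 32158 of 32285 gene rows had a symbol. Nuclei had 102501 to 502340 reads after selection.

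Counts were scaled to CPM, and log2(CPM + 1) was averaged per vector, vectors weighted equally (Python 3.11.15, numpy 2.4.6, pandas 2.3.3, scipy 1.17.1); TMM factors came from edgeR 4.0.16. Positions are from GENCODE M21 on mm10. Code was tested on simulated data. No doublet caller was run, each library being 1 nucleus, and no 2 libraries were identical.

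Members and lists were chosen with earlier results of these data known. Named were the 12 largest differences each way among genes outside the other vectors (mitochondrial, Gm and Rik genes left out), list members outside them, or else a list's extremes, and 6 layer genes. Alternatives were scaling, pseudocount, filters, weighting, depth, selection limits, library sets and omissions. A few genes that this rule names are not reported here.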

Additional observations from a re-analysis of the deposited data

Results flagged for a closer look

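In 4 of 66 measures checked over the 10 other vectors, 1 vector stood far from the rest; chance gives this for about 1 in 20 groups. hSyn1 was lowest for Eif4a2, at 3.21 where the next vector had 5.13, for Nipbl, at 0 where the next had 2.61, and for the mean of the potassium channel list, at 1.84 where the next had 2.30. AiE0743m_3xC2 was highest for Mast3, at 6.53 where the next had 5.37. With hSyn1 left out, the number of genes below every other vector was 633.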

How the results depend on the processing

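No paired analysis was possible because AiE0447h is 1 sample and no test was made. The number of genes above every other vector, 81, and below, 514, depended on the scale. A pseudocount of 10 gave 22 and 155, with 225 genes past 1 log2 unit against 1114 and a median difference of -0.19. Without the filter on the share of nuclei 150 were above and the median was -0.056. Centring gave 194 and 229 with a median of -0.025. Other vectors taken from all library sets gave 43 and 870 with a median of -0.55. Summed reads gave 236 and 264 with a median of 0.081. Only nuclei with Cux2 or Rorb, 10 of AiE0447h against 3 vectors, gave 603 and 1239, and 2077 past 1 unit; there Eif4a2 stood at -0.050 and Zcchc7 at 0.011. Vectors with at least 20 nuclei gave 156 and 922. Without nuclei under 1900 genes, a choice made after the data were seen, 249 were above and the median was -0.21. Leaving out 1 vector or 1 AiE0447h nucleus at a time gave 76 to 99 above, 482 to 633 below, 1080 to 1186 past 1 unit, and medians of -0.38 to -0.32. For these counts and medians the cause was not tested. TMM scaling, equal weight per nucleus, thinning and a stricter selection kept both counts within 1.5 times. Layer shares and genes per nucleus stayed within their intervals or spread. Of 1500 values of the leading and layer genes under 50 settings, 1447 moved by less than the SD of the other vectors. All but 13 of the 50 settings only left out 1 vector or 1 nucleus, which moves a mean little. The 1447 values therefore say little about the choice of processing, and the list genes were not among them. The sign differed in 12 of the 1500 values. These were in Eif4a2 and Zcchc7 as given and in Cux2, Foxp2 and Tshz2, whose values reached 0.14, 1.30 and 1.86 on summed reads. With 27 nuclei, shares are known only to within wide intervals, and low genes rest on few nuclei.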

Other observations

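Gene groups below were picked after their values had been seen. Of 71 compared subunits of nuclear-encoded oxidative phosphorylation, which make ATP in mitochondria, 11 (15.5%) lay below every other vector, against 10.7% of all genes, and none above, with a median difference of -0.46 against -0.35 over all genes. After centring 6 (8.45%) lay below, against 4.78% of all genes, and 1 (1.41%) above, against 4.05%, with a median of -0.14. Of 6 measured members of the THO complex, 3 were compared (Thoc1, Thoc2 and Thoc7). All 3 lay below, against 10.7% of all genes, and 2 did after centring, against 4.78%. These 2, Thoc1 and Thoc2, were already named among the lowest genes, so their place was known before the group was picked. The members not compared, Thoc3, Thoc5 and Thoc6, had differences of 1.33, -0.28 and -0.27. Of 55 cytosolic ribosomal protein genes, 4 (7.27%) lay below, against 10.7% of all genes, with a median of -0.36. Above lay 1 (1.82%), Rpl34, against 1.69% of all genes. After centring 1 (1.82%) lay below, against 4.78%, and 2 (3.64%) above, against 4.05%. Of 19 vacuolar proton pump genes, 2 (10.5%) lay below, close to the 10.7% of all genes. Above lay 1 (5.26%), against 1.69% of all genes. It was Atp6v1d, already named among the leading genes.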
